A study of Arabidopsis thaliana with 12 samples.

Results

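Photorespiratory stress was compared with growth in long days in mock-treated seedlings of Arabidopsis thaliana cat2-2, a T-DNA insertion mutant of CATALASE2. The comparison covers all 21882 genes of the deposited table and the group means of 6 of the 12 libraries of the series, 3 libraries of Stress and 3 of DMSO. Every plant was cat2-2 and grew in a well of a 96-well plate, 5 plants to a well, in liquid half-strength MS medium at 21 °C and in days of 16 h of light, until the medium was changed on day 7. Stress plants then had the solvent DMSO for 4 days, followed by 2 days in plates sealed with Parafilm and lit for 24 h per day. DMSO plants had the same solvent and were harvested after the 4 days, so that they were 2 days younger. RNA came from leaf material, and how many seedlings were pooled for a library is not given in the sources used here. Since sealing, day length and age differed together between the groups, their parts in a difference cannot be told apart, and no wild-type plant is among the groups. The other 6 libraries, Stress + Pakerine and Pakerine, had 10 µM pakerine in the same schedule, and their means were used as a repeat of the comparison that shares no library with it.

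CAT2 encodes the main leaf catalase, which breaks down hydrogen peroxide (H2O2) in the peroxisome. In photorespiration, Rubisco fixes oxygen in place of carbon dioxide, and the resulting glycolate is oxidised in the peroxisome by glycolate oxidase, which releases H2O2. When gas exchange is restricted in the light, carbon dioxide runs down and more glycolate is made, and a leaf without CAT2 removes the H2O2 poorly. H2O2 is known in Arabidopsis leaves as a signal upstream of salicylate, of detoxification enzymes and of cell death.

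The table gives 1 value per group, the authors' mean CPM (counts scaled to a common total per library) over the 3 libraries, with no value per library, so that the differences have no replicate check and no test was made. A gene is called higher or lower here when the log2 ratio of (Stress + 0.5 CPM) to (DMSO + 0.5 CPM) reached 1 in either direction, a 2-fold difference, and the higher group had at least 1 CPM. Where a fold is printed, it is the ratio of the mean CPM itself, and its 95% interval is an exact one for the reads behind both means, which covers counting error only. The smallest steps between low values returned 28472000 to 33321000 counted reads per library, and 3 reads in a whole group correspond to 0.0319 CPM in Stress and 0.0335 CPM in DMSO. For 6 of the 12 libraries, all 3 of Stress among them, the title gives a group other than the one its treatment entry gives. The headings of the table name the groups themselves and were followed.

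Reads of CAT2 were still counted in the mutant, with 76.1 CPM in Stress and 19.5 CPM in DMSO, a ratio of 3.90-fold (counting interval 3.71 to 4.12). The locus overlaps the coding gene AT4G35080, and whether these reads came from an intact CAT2 transcript was not tested. The 4 leaf mesophyll markers checked (RBCS1A, CA1, LHCB1.3 and GAPB) summed to 16012 CPM in Stress and 18664 CPM in DMSO, and none passed the 2-fold ratio. All 14 root markers were counted too, with a sum of 702 CPM in Stress and 1643 CPM in DMSO, most of it from BGLU23, the ER body β-glucosidase PYK10 (622 and 1547 CPM). The other 13 root markers summed to 80.6 CPM in Stress and 95.5 CPM in DMSO, and the root stem cell regulators PLT1 and PLT2 stood below 0.4 CPM in both groups. Of the guard cell markers, all 5 had positive log2 ratios, between 0.48 and 0.74, and a summed level of 96.5 CPM in Stress and 63.6 CPM in DMSO. The shoot meristem genes STM (9.50 CPM in Stress and 10.7 CPM in DMSO) and KNAT1 (12.2 CPM in Stress and 12.0 CPM in DMSO) were nearly level. The 4 vasculature markers summed to 169 CPM in Stress and 149 CPM in DMSO, with none past the 2-fold ratio, and the seed markers were not analysed here. In such bulk samples, fewer cells of a type and less RNA per cell cannot be told apart.

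More genes were higher than lower in Stress. Of the 18679 genes with at least 1 CPM in Stress or DMSO, 731 (3.91%) were called higher and 305 (1.63%) lower. The higher genes had larger ratios, since 116 of them passed a 4-fold ratio and 21 an 8-fold ratio, while 5 and 0 of the lower genes did. Together the 731 genes made up 3.42% of all CPM in Stress and 1.25% in DMSO, and the 305 genes 0.682% in Stress and 1.65% in DMSO. Most transcripts differed little, with 83.3% of the 18679 genes within a 1.5-fold ratio and a median log2 ratio of -0.06. The 2-fold line does not fall in a gap, since 487 genes lay within 0.1 of it on the log2 scale. Counts in the gene lists further on stand beside these shares of 3.91% and 1.63%. List sizes and list medians also take in members under 1 CPM in both groups, which could not be called.

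**Figure D1:**
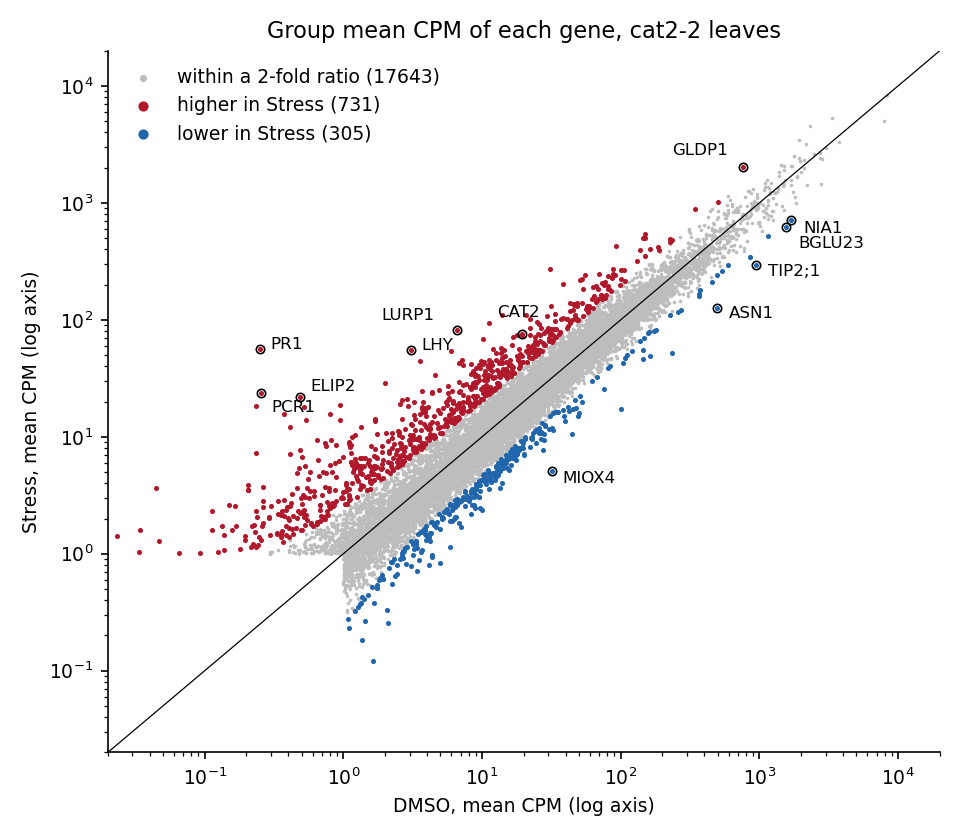
Mean CPM of each gene in Stress (y axis) and in DMSO (x axis), both log axes, for genes with at least 1 CPM in either group. The 731 red points lie above the diagonal and reach ratios of over 200 (PR1, 227-fold), whereas the 305 blue points below it stay closer to the line, with MIOX4 at 6.23-fold lower.

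The gene with the highest ratio was PR1, the secreted pathogenesis-related protein that marks salicylate signaling, with 56.8 CPM in Stress and 0.250 CPM in DMSO, a ratio of 227-fold (counting interval 152 to 369). PCR1, a plasma membrane protein of the cadmium resistance family, followed with 23.602 CPM in Stress, against 0.255 CPM in DMSO. A gene of unknown function, AT2G15020, had 18.4 CPM in Stress and 0.235 CPM in DMSO. ELIP2, an early light-induced protein that binds chlorophyll in thylakoids under excess light, had 21.8 CPM in Stress and 0.490 CPM in DMSO. The AAA-type nucleoside triphosphatase AT3G28510 had 15.8 CPM in Stress and 0.373 CPM in DMSO and SAG13, an oxidoreductase gene of senescing and dying leaves, 17.9 CPM in Stress and 0.519 CPM in DMSO. Among the 15 highest ratios, 2 belonged to the morning transcription factors LHY (54.8 CPM in Stress, against 3.06 CPM in DMSO) and RVE8 (28.8 and 2.00 CPM in the same order), and 1 to the antifungal defensin PDF1.2b (13.9 and 0.542 CPM). PCC1, a small membrane-bound protein controlled by pathogens and the clock, had 12.1 CPM in Stress and 0.415 CPM in DMSO, and its neighbour in sequence AT3G22235 had 18.7 CPM in Stress and 0.9501 CPM in DMSO. PCC1 shares 24.7% and AT3G22235 56.0% of their 75-base stretches with another gene, so that the division of reads between them is uncertain. The others were PR2, a β-1,3-glucanase, at a log2 ratio of 3.64, the oomycete response gene LURP1 at 3.54, the pectin methylesterase family gene AT2G45220 at 3.46, and RLP49, a receptor-like protein locus that the table lists as a pseudogene, at 3.34.

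At the other end, the lowest ratio among genes with at least 10 CPM was that of MIOX4, a myo-inositol oxygenase, which had 5.12 CPM in Stress, against 31.9 CPM in DMSO, 6.23-fold (counting interval 5.65 to 6.88) lower in Stress. AT1G12080, a vacuolar calcium-binding protein-related gene, had 17.383 CPM in Stress and 101 CPM in DMSO. The PQ-loop membrane protein gene AT4G36850 had 51.6 CPM in Stress and 235 CPM in DMSO. ASN1, the asparagine synthetase of dark-adapted and sugar-starved leaves, had 126 CPM in Stress, against 493 CPM in DMSO, 3.91-fold (counting interval 3.83 to 3.99) lower. HRA1, a trihelix factor that holds back the response to low oxygen, had 7.76 CPM in Stress and 27.4 CPM in DMSO. TIP2;1, an aquaporin of the tonoplast, had 293 CPM in Stress, against 942 CPM in DMSO, 3.22-fold (counting interval 3.173 to 3.26) lower. Others of the 15, given for Stress and then DMSO, were the lipid transfer protein LTP2 (46.6 and 145 CPM) and the ABC-2 type transporter family gene ABCG15 (4.05 and 14.0 CPM). In the same order, the pectin methylesterase PME5 had 16.0 and 50.2 CPM and the β-xylosidase BXL2 25.6 and 75.4 CPM. CDC20.1, an activator of the anaphase-promoting complex, had 9.40 CPM in Stress and 28.1 CPM in DMSO and shares 25.6% of its 75-base stretches with another gene. AT1G62500, AT4G37220, AT5G62720 and DI21 completed the 15, with log2 ratios of -2.03, -1.76, -1.72 and -1.66.

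**Figure D2:**
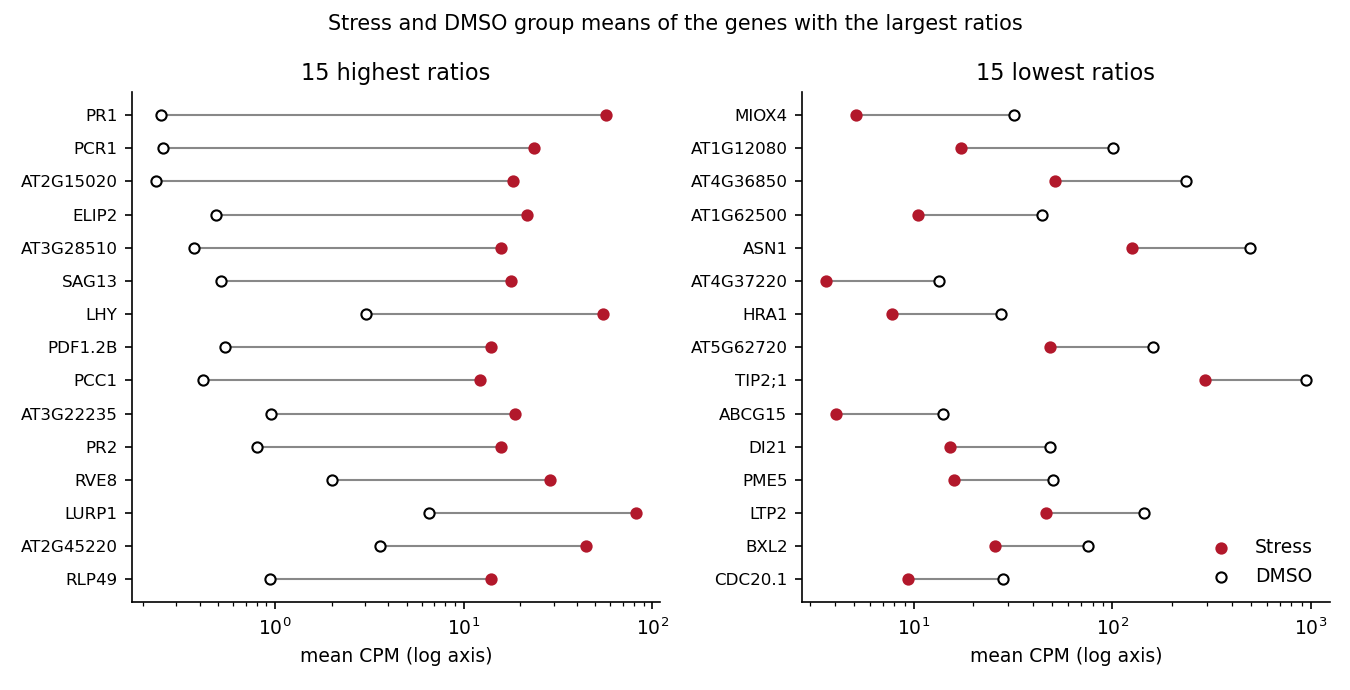
Mean CPM in Stress (red) and DMSO (white), on a log axis, of the 15 genes with the highest and the 15 with the lowest log2 ratios among called genes with at least 10 CPM in the higher group. The genes on the left were near or under 1 CPM in DMSO in most cases, while those on the right started from 13.5 CPM (AT4G37220) to 942 CPM (TIP2;1) in DMSO.

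Within the photorespiratory cycle itself, 2 of the 24 genes were called higher and none lower, with a list median of 0.27. Both encode the P-protein of glycine decarboxylase, the mitochondrial complex that turns glycine into serine and releases carbon dioxide and ammonium, with 2010.0 CPM in Stress and 765 CPM in DMSO for GLDP1 and 1017 CPM in Stress and 506 CPM in DMSO for GLDP2. Other subunits of that complex had ratios nearer to 1, as GDCH, an H-protein, had 372 CPM in Stress and 361 CPM in DMSO and the T-protein gene AT1G11860 1114 CPM in Stress and 958 CPM in DMSO. Of the peroxisomal enzymes that lead to glycine, the glycolate oxidases GOX1 and GOX2 had log2 ratios of 0.62 and 0.51, and the glutamate:glyoxylate aminotransferases GGT1 and GGT2 0.29 and 0.55. Of those that use serine afterwards, the serine:glyoxylate aminotransferase AGT1 had a log2 ratio of 0.56 and the hydroxypyruvate reductase HPR1 one of 0.53. SHM1, the mitochondrial serine hydroxymethyltransferase, had 2066 CPM in Stress and 1496 CPM in DMSO. Ammonium reassimilation in the plastid showed no common direction, since GLN2, the plastid glutamine synthetase, had a log2 ratio of -0.17 and GLU1, its partner glutamate synthase, one of 0.28. PGLP1, the phosphatase that opens the cycle, was listed at only 0.170 CPM in Stress and 0.225 CPM in DMSO, and 92.5% of its 75-base stretches occur in another gene, so that its level is not reliable. Apart from GLDP1, GLDP2, SHM1 and AGT1, the photorespiration genes named here were chosen after their values were seen.

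Of the 33 catalase and antioxidant genes, 3 were called higher and none lower (list median 0.20). After CAT2 came VTC2, the GDP-L-galactose phosphorylase that controls ascorbate synthesis, with 498 CPM in Stress, against 150.02 CPM in DMSO, a ratio of 3.32-fold (counting interval 3.26 to 3.39). GR1, the cytosolic and peroxisomal glutathione reductase, had 163 CPM in Stress and 78.9 CPM in DMSO. None of the genes for enzymes that recycle ascorbate passed the 2-fold ratio, and they had no common direction. The monodehydroascorbate reductase genes had log2 ratios between -0.66 (MDAR6) and 0.93 (MDAR2), and the dehydroascorbate reductase genes between -0.24 (DHAR1) and 0.59 (DHAR2), all named after their values were seen. APX1, the cytosolic ascorbate peroxidase, had 3211 CPM in Stress and 2164 CPM in DMSO, and CAT3, another leaf catalase, 3302 CPM in Stress and 3769 CPM in DMSO.

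**Figure D3:**
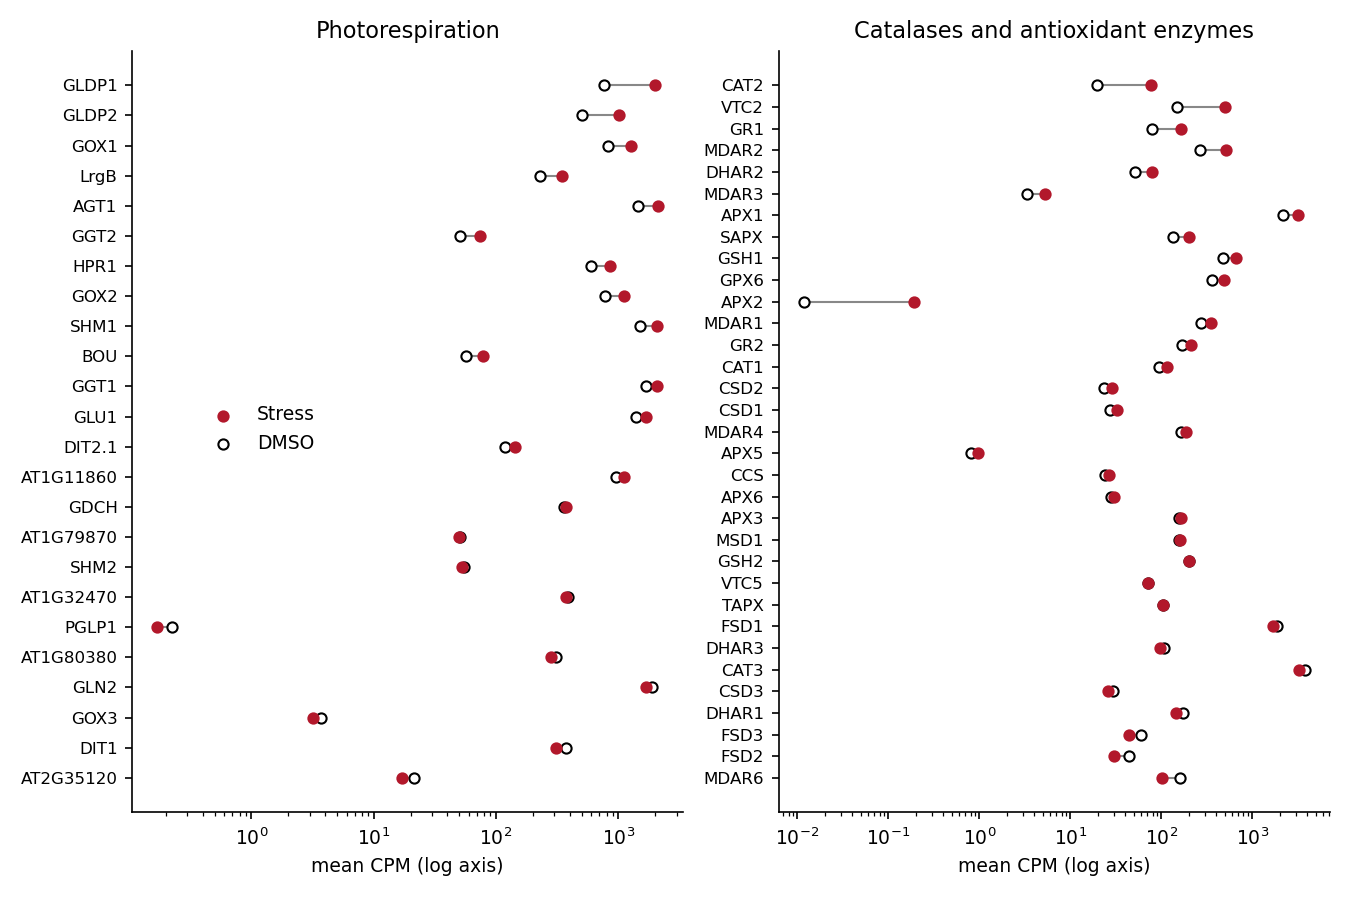
Mean CPM in Stress (red) and DMSO (white), on a log axis, of the 24 photorespiration genes and the 33 catalase and antioxidant genes, each ordered by log2 ratio. The gaps are widest for GLDP1 and GLDP2 on the left and for CAT2 and VTC2 among the well-counted genes on the right, while most pairs of points nearly touch.

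Known transcript markers of H2O2 and of signaling from organelles were higher more often, with 9 of 23 called higher, none lower, and a list median of 0.82. Positive log2 ratios were found for 21 of them and negative ones for 2, named after their values were seen. These were AT2G21640, just within the 2-fold ratio at -0.96 (15.1 CPM in Stress and 29.8 CPM in DMSO), and GSTU25 at -0.69. UGT74E2, a glucosyltransferase of indole-3-butyric acid that responds to H2O2, had 95.4 CPM in Stress, against 25.1 CPM in DMSO. WRKY75, a transcription factor of leaf senescence, had 5.51 CPM in Stress and 1.24 CPM in DMSO, and the zinc finger factor ZAT10 44.2 CPM in Stress and 13.8 CPM in DMSO. FER1, the plastid iron store ferritin, stayed within the 2-fold ratio, with 754 CPM in Stress and 428 CPM in DMSO. Detoxification genes leaned the same way, with 11 of 25 called higher and none lower (median 0.93). The glutathione transferases GSTU4 (23.9 CPM in Stress and 5.69 CPM in DMSO), GSTF7 (184 and 53.0 CPM) and GSTF6 (193 and 66.5 CPM) and the glucosyltransferase UGT73B4 (36.2 and 11.8 CPM) were the furthest members, each listed with Stress before DMSO. GSTF2 was the called member with the most reads, at 887 CPM in Stress, against 343 CPM in DMSO.

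The promoters were searched for the W-box (TTGACC or TTGACT), which WRKY factors bind, and for the core of the as-1 element (TGACG), which TGA factors bind. Within the 250 bases before the annotated start and on either strand, the W-box occurred in 19 of 25 detoxification genes (76%), in 13 of 20 cysteine-rich receptor-like kinase genes (65%), in 12 of 23 markers of H2O2 and organelle signaling (52.2%), in 5 of 18 genes of salicylate and N-hydroxypipecolate synthesis (27.8%) and in 4 of 25 salicylate response genes (16%). It occurred in 1 of the 15 genes with the highest ratios (6.67%), in 304 of the 731 genes called higher (41.6%) and in 79 of the 305 called lower (25.9%), beside 28.3% of 21730 promoters of the table. The as-1 core occurred in 14 of the detoxification genes (56%), in 25.7% of the genes called higher and in 16.1% of those called lower, beside 19.2% of all. A match is a string of letters and not a site shown to be bound. The promoters of GSTF7 (chr1:659981-660230, minus strand), UGT73B4 (chr2:6761385-6761634, plus strand) and the receptor kinase gene CRK36 (chr4:2234690-2234939, minus strand) are shown because they belong to the furthest members of these lists and hold such strings. They are taken from the RefSeq TAIR10.1 assembly and written 5′ to 3′ up to the base before the gene start, with every W-box and as-1 core in capitals.
GSTF7: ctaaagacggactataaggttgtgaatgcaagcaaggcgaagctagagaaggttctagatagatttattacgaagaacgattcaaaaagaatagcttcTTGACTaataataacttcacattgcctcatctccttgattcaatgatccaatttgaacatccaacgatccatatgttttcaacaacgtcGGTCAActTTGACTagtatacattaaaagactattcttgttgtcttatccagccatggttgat
UGT73B4: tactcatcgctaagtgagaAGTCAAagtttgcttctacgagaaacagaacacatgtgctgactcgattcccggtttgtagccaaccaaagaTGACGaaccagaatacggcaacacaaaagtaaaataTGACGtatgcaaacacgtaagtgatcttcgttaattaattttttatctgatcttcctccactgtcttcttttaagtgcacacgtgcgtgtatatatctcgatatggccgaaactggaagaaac
CRK36: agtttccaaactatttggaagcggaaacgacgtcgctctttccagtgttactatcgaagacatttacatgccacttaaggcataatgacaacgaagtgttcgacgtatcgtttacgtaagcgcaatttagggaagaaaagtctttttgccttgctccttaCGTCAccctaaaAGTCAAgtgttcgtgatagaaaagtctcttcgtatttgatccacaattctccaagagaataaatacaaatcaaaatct
GSTF7 holds 3 W-boxes in this window, UGT73B4 a W-box and 2 as-1 cores, and CRK36 1 of each.

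Salicylate genes formed the list with the highest median of all 35, 1.62 for the 25 response genes measured, of which 18 were called higher and none lower. Besides PR1, PR2, PCC1 and LURP1, WRKY54, a WRKY factor of the salicylate feedback, had 10.3 CPM in Stress, against 1.21 CPM in DMSO. UGT74F2, which conjugates salicylate with glucose, stayed within the 2-fold ratio (193 CPM in Stress and 104 CPM in DMSO). The 2 members with negative log2 ratios were PR5 (7.24 CPM in Stress and 7.76 CPM in DMSO) and UGT74F1 (2.09 and 2.55 CPM). Both were named after their values were seen. On the side of synthesis, 8 of 18 genes for salicylate and N-hydroxypipecolate were called higher and none lower (median 0.83). None of the 3 genes that make N-hydroxypipecolate was called, and they were named after their values were seen. The aminotransferase ALD1 (0.498 CPM in Stress and 0.115 CPM in DMSO) and the monooxygenase FMO1 (0.908 and 0.471 CPM) could not be called, being under 1 CPM in both groups. The mean CPM of ALD1 had a ratio of 4.34-fold (counting interval 2.23 to 9.91). With 0.5 CPM added, the log2 ratios were 0.70 for ALD1, 0.97 for the reductase gene AT5G52810 and 0.54 for FMO1. PBS3, which couples isochorismate to glutamate on the way to salicylate, had 20.5 CPM in Stress, against 2.67 CPM in DMSO, and its regulator SARD1 had 19.9 CPM in Stress and 3.72 CPM in DMSO. UGT76B1, a glucosyltransferase that inactivates N-hydroxypipecolate and the only gene of that compound among the 8, had 36.4 CPM in Stress and 10.5 CPM in DMSO. Of the 20 cysteine-rich receptor-like kinases, plasma membrane proteins known for their response to oxidative stress and salicylate, all had positive log2 ratios and 8 were called higher, CRK36 the furthest with 14.2 CPM in Stress, against 2.64 CPM in DMSO. CRK6, with 3.02 CPM in Stress and 0.563 CPM in DMSO, shares 16.8% of its 75-base stretches with another gene.

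Genes of the 2 jasmonate lists differed less. For jasmonate synthesis 1 of 14 genes was called higher and for jasmonate response 1 of 21, with list medians of 0.09 and 0.18. These counts were near the 3.91% called higher among all genes with at least 1 CPM. The 2 genes were LOX4, a 13-lipoxygenase (5.57 CPM in Stress and 2.22 CPM in DMSO), and the tyrosine aminotransferase TAT3 (1.99 CPM in Stress and 0.725 CPM in DMSO). LOX2, the main leaf lipoxygenase of jasmonate synthesis, had 195 CPM in Stress and 219.6 CPM in DMSO. In the list of ethylene synthesis and the ERF branch, 8 of 22 genes were called higher and none lower (median 0.67). The largest ratios there were those of the defensins. The study calls PDF1.2a, PDF1.2c and PDF1.3 jasmonate-responsive, so part of the difference between the lists rests on where these were placed. ERF1 (log2 ratio 0.50), ORA59 (0.79) and the ethylene feedback genes ETR2, ERS2, EBF1 and EBF2 (-0.04 to 0.16) were not called. All of these were named after their values were seen. Next to PDF1.2b, PDF1.3 had 8.12 CPM in Stress and 1.12 CPM in DMSO, PDF1.2a 4.92 CPM in Stress and 0.747 CPM in DMSO and PDF1.2c 2.19 CPM in Stress and 0.338 CPM in DMSO. ACS2, an enzyme of the committed step of ethylene synthesis, had 2.09 CPM in Stress and 0.435 CPM in DMSO.

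Genes of indole defence metabolism leaned higher and aliphatic glucosinolates leaned lower. All 15 genes of indole glucosinolates and camalexin had positive log2 ratios, and 5 were called higher. CYP71A12, a cytochrome P450 of indole-3-acetonitrile and camalexin synthesis, had 7.75 CPM in Stress, against 0.483 CPM in DMSO, a ratio of 16.0-fold (counting interval 11.8 to 22.4). PAD3, the P450 of the last steps of camalexin synthesis, had 5.00 CPM in Stress and 0.833 CPM in DMSO. CYP83B1, at the entry of the indole glucosinolate core pathway, had 397 CPM in Stress, against 137 CPM in DMSO, and CYP79B2, which supplies its substrate, 57.1 CPM in Stress and 22.3 CPM in DMSO. No read of CYP71A13, the partner of CYP71A12 in camalexin synthesis and named after its value was seen, was counted in DMSO, which allows up to 0.0335 CPM, and Stress had 0.399 CPM. Of the 18 genes of aliphatic glucosinolates, 2 were called lower and none higher (median -0.60). These were the glutathione transferase GSTU20 (55.1 CPM in Stress and 146 CPM in DMSO) and CYP79F1, the entry enzyme of the aliphatic core pathway (38.8 CPM in Stress and 81.1 CPM in DMSO). MAM1, the chain-elongating synthase, had 119.9 CPM in Stress and 236 CPM in DMSO.

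Photosynthesis genes split by group. None of the 29 nuclear genes of the photosystems and electron transport (median -0.03) and none of the 18 Calvin cycle genes (median 0.24) passed the 2-fold ratio, and RBCS1A, a small subunit of Rubisco, had 8400.0 CPM in Stress and 8277 CPM in DMSO. RCA, the Rubisco activase, had 5302 CPM in Stress and 3319.5 CPM in DMSO. Among the 19 light-harvesting antenna genes (median -0.29), LHCB1.2 (346 CPM in Stress and 857 CPM in DMSO) and LHCB1.4 (524 CPM in Stress and 1161 CPM in DMSO), both of the main trimeric antenna of photosystem II, were called lower. LHCB1.3, the antenna gene with the most reads, had 5009 CPM in Stress and 7954 CPM in DMSO. LHCB4.3, a minor antenna isoform known to rise in strong light, went the other way, with 39.2 CPM in Stress and 16.7 CPM in DMSO. The antenna genes together summed to 14929 CPM in Stress and 21430 CPM in DMSO. All 10 photoprotection genes had positive log2 ratios (median 0.68), and 3 were called higher. ELIP1 had 7.28 CPM in Stress, against 0.235 CPM in DMSO, next to its paralog ELIP2, and ZEP, the zeaxanthin epoxidase of the xanthophyll cycle, had 182 CPM in Stress and 82.6 CPM in DMSO. HYH, a bZIP factor of light signaling, headed the 16 flavonoid and anthocyanin genes measured, with 41.981 CPM in Stress, against 10.2 CPM in DMSO. The flavonoid enzymes CHS, chalcone synthase (25.6 CPM in Stress and 11.6 CPM in DMSO), and UGT78D2, a flavonoid glucosyltransferase (35.2 CPM in Stress and 15.2 CPM in DMSO), were the other 2 of the list called higher, and 10 members of it were not analysed here.

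The morning genes of the circadian clock stood out, and the day length of the groups differed (24 h against 16 h of light). Of 11 morning genes 6 were called higher and none lower (median 1.36). LHY and CCA1 encode paired MYB repressors that peak at dawn, and LHY had a ratio of 17.9-fold (counting interval 15.8 to 20.3) and CCA1 one of 7.36-fold (counting interval 6.47 to 8.42), from 21.3 CPM in Stress and 2.89 CPM in DMSO. RVE8, given above among the highest ratios, is an activator of the same MYB family. PRR9, a pseudo-response regulator of the morning, had 5.37 CPM in Stress and 1.34 CPM in DMSO and shares part of its 75-base stretches with another gene. The coactivator LNK2 had 76.8 CPM in Stress and 27.8 CPM in DMSO, while PRR7, the next regulator of the day, had 109 CPM in Stress and 119 CPM in DMSO. The 20 evening and photoperiod genes gave 2 higher, none lower and a median of -0.06. COL1, a relative of the flowering regulator CONSTANS, had 4.34 CPM in Stress and 0.557 CPM in DMSO, and the Dof factor CDF3 18.1 CPM in Stress and 7.28 CPM in DMSO. Of these 20 genes, 12 had negative and 8 positive log2 ratios. Among the negative ones within the 2-fold ratio were LUX at -0.85, BOA at -0.82, PRR3 at -0.81 and TOC1 at -0.51, all named after their values were seen. GRP7, a clock-controlled RNA-binding protein, had 1454 CPM in Stress and 2773 CPM in DMSO. The hour of harvest is not given in the sources used here, and its part in these values was not tested.

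The G-box (CACGTG) occurred in the promoters of 6 of the 11 morning genes (54.5%) and an ABRE (ACGTGGC or ACGTGTC, which can overlap a G-box) in 8 (72.7%), beside 7.12% and 7.05% of all promoters. LHY (chr1:37872-38121, minus strand) and CCA1 (chr2:19245341-19245590, plus strand) are shown with G-boxes and ABREs of either strand in capitals, since both hold the motifs as an overlapping string.
LHY: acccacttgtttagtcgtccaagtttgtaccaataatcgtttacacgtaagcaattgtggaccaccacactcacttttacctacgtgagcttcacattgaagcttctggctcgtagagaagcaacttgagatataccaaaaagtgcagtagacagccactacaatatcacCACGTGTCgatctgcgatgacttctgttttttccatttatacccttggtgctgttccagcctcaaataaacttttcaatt
CCA1: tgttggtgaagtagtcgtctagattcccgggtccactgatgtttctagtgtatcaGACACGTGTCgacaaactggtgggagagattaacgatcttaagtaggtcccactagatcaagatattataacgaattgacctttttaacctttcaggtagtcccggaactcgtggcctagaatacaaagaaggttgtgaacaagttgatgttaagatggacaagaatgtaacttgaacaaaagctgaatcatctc
The evening element (AAAATATC) was found in none of the 11, in 9 of the 20 evening and photoperiod genes (45%) and in 5.99% of all promoters.

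Carbon starvation genes leaned lower and a few starch genes were higher. Of 21 carbon starvation genes, 18 had negative log2 ratios (median -0.52), but only ASN1 and MCCA, a subunit of methylcrotonyl-CoA carboxylase in leucine breakdown (117 CPM in Stress and 261 CPM in DMSO), were called lower. DIN10, a raffinose synthase family gene of dark-treated leaves, had 1416 CPM in Stress and 2204 CPM in DMSO, and the proline dehydrogenase ERD5 571 CPM in Stress and 1045 CPM in DMSO. Of 19 starch genes 3 were called higher and none lower (median 0.13). GBSS1, the granule-bound starch synthase that makes amylose, had 17.77 CPM in Stress and 3.93 CPM in DMSO, BAM3, the main β-amylase of leaf starch breakdown at night, 537 CPM in Stress, against 149.68 CPM in DMSO, and GPT2, a plastid glucose-6-phosphate transporter, 2.53 CPM in Stress and 0.393 CPM in DMSO. The 3 myo-inositol oxygenase genes measured, whose enzymes open myo-inositol towards cell wall sugars, had negative log2 ratios (median -0.76), and MIOX4 was the only member called lower, while MIOX2 had 477 CPM in Stress and 809 CPM in DMSO.

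Nitrogen genes divided evenly. GLN1;1, a cytosolic glutamine synthetase (207 CPM in Stress and 73.5 CPM in DMSO), and NRT3.1, a partner of high-affinity nitrate transporters (23.2 CPM in Stress and 10.7 CPM in DMSO), were called higher, and NIA1, a nitrate reductase (711 CPM in Stress, against 1695 CPM in DMSO), and ASN2, an asparagine synthetase (294 CPM in Stress and 594 CPM in DMSO), lower, out of 15. NIA2, the other nitrate reductase, had 2377 CPM in Stress and 2821 CPM in DMSO. Of 18 sulfur genes 4 were called higher and none lower (median 0.33). They were SDI1, a repressor of glucosinolate synthesis in sulfur deficiency (6.0013 CPM in Stress and 1.51 CPM in DMSO), LSU1 (2.04 CPM in Stress and 0.293 CPM in DMSO), the glutathione-degrading enzyme GGCT2;1 (3.35 CPM in Stress and 0.998 CPM in DMSO) and the β-glucosidase BGLU28 (2.04 CPM in Stress and 0.516 CPM in DMSO). Of 20 iron genes 4 were called higher and 1 lower (median 0.08). FRO6, a ferric reductase of leaf cells, had 92.5 CPM in Stress, against 25.9 CPM in DMSO, the nicotianamine synthase NAS3 38.2 CPM in Stress and 14.1 CPM in DMSO and the metal-nicotianamine transporter YSL1 162 CPM in Stress and 72.1 CPM in DMSO. The iron deficiency regulator BHLH39 had 0.267 CPM in Stress and 1.43 CPM in DMSO, and its close relatives BHLH38 (0.0319 and 0.635 CPM) and BHLH100 (0.0319 and 0.461 CPM), named after their values were seen, stayed under 1 CPM in both groups.

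Genes of cell division leaned lower throughout. All 27 genes of DNA replication and mitosis had negative log2 ratios, 12 of them were called lower, and the median of -0.96 was the lowest of the 35 lists. The called members act mostly in mitosis. KNOLLE, the syntaxin of cytokinesis, had 11.4 CPM in Stress, against 32.6 CPM in DMSO, 2.85-fold (counting interval 2.66 to 3.06) lower, CYCB1;2, a mitotic cyclin, 7.03 CPM in Stress and 20.0 CPM in DMSO, and HIK, the kinesin that guides the cell plate, 8.83 CPM in Stress and 24.3 CPM in DMSO. TPX2, a spindle assembly factor, had 6.53 CPM in Stress and 16.5 CPM in DMSO, and EDE1, a microtubule-binding protein of mitosis, 1.31 CPM in Stress and 3.96 CPM in DMSO. Members of DNA synthesis had smaller ratios, with log2 ratios between -0.63 (MCM7) and -0.33 (MCM3) for the 6 replicative helicase genes MCM2 to MCM7, named after their values were seen, and -0.58 for the ribonucleotide reductase subunit RNR1. The meristem markers STM and KNAT1, given above, were nearly level beside this list.

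Growth-related lists leaned lower as well. Of 9 cytokinin response genes all had negative log2 ratios, and the type-A response regulators ARR6 (2.36 CPM in Stress and 10.0 CPM in DMSO) and ARR7 (8.80 CPM in Stress and 19.8 CPM in DMSO) were called lower. Of 31 genes of wall loosening and aquaporins 4 were called lower and none higher (median -0.42). Besides TIP2;1 these were the xyloglucan endotransglucosylases XTH15 (10.6 CPM in Stress and 27.8 CPM in DMSO) and XTH9 (82.2 CPM in Stress and 181 CPM in DMSO) and the plasma membrane aquaporin PIP2;7 (244 CPM in Stress and 491 CPM in DMSO). TIP1;2, another tonoplast aquaporin, had 998 CPM in Stress and 1827 CPM in DMSO, and XTH24 went the other way within the 2-fold ratio, with 1829 CPM in Stress and 1379 CPM in DMSO. None of the 22 auxin response genes measured was called (median -0.18), and 6 of them could not be, being under 1 CPM in both groups. Of the root markers, 12 of 14 had negative log2 ratios, with a median of -0.50, and the part of root tissue in the lower aquaporin and wall genes was not tested.

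Of the 21 heat shock genes measured, 5 were called lower in Stress and none higher, with a median of -0.47. The 5 are among the 10 genes of the list for small heat shock proteins, chaperones that hold unfolding proteins. HSP23.6-MITO, the mitochondrial member, had 0.798 CPM in Stress, against 4.16 CPM in DMSO, 5.21-fold (counting interval 4.06 to 6.78) lower. HSP17.6II (1.09 CPM in Stress and 3.68 CPM in DMSO), the HSP20-like gene AT1G53540 (0.888 CPM in Stress and 3.52 CPM in DMSO), HSP17.6A (3.85 CPM in Stress and 9.60 CPM in DMSO) and HSP17.4 (5.90 CPM in Stress and 14.1 CPM in DMSO) were the other 4. Of the small heat shock protein genes not called, HSP18.2 had 1.2988 CPM in Stress and 1.24 CPM in DMSO and AT5G51440 24.1 CPM in Stress and 39.5 CPM in DMSO, both named after their values were seen. The larger chaperones HSP70 (90.5 CPM in Stress and 111 CPM in DMSO) and HSP90.1 (72.0 CPM in Stress and 100.2 CPM in DMSO) stayed within the 2-fold ratio. Among 17 hypoxia genes 2 were called lower, HRA1 and the fatty acid desaturase SAD6 (2.18 CPM in Stress and 5.77 CPM in DMSO), and none higher (median -0.15), and ADH1, the alcohol dehydrogenase of fermentation and named after its value was seen, had 44.2 CPM in Stress and 43.7 CPM in DMSO. None of 16 genes of the unfolded protein response of the endoplasmic reticulum passed the 2-fold ratio (median -0.12), with 273 CPM in Stress and 298 CPM in DMSO for the lumenal chaperone BIP1, which shares 13.4% of its 75-base stretches with another gene. The heat shock element (GAANNTTC) was found in 6 of the 21 heat shock promoters (28.6%), in 15.3% of the genes called higher, in 7.21% of those called lower and in 9.41% of all. The promoter of HSP17.4 (chr3:16984868-16985117, minus strand) is shown with both of its matches in capitals, because this gene turned round between mock-treated and pakerine-treated plants, as given further on.
HSP17.4: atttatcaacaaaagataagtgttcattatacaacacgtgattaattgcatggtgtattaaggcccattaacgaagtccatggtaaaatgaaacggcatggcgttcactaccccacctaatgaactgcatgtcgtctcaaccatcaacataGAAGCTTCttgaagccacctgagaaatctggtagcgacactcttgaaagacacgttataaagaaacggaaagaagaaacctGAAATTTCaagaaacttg

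Senescence and abscisate genes gave a few large ratios. Of 17 genes of senescence and chlorophyll breakdown 4 were called higher and none lower (median 0.72). Besides SAG13 they were NAC029, the senescence regulator NAP (38.4 CPM in Stress, against 9.69 CPM in DMSO), NAC019 (8.73 CPM in Stress and 2.33 CPM in DMSO) and the ribonuclease RNS1 (8.14 CPM in Stress and 3.21 CPM in DMSO). NYC1, a chlorophyll b reductase of chlorophyll breakdown, had 424 CPM in Stress and 418 CPM in DMSO. Of 28 abscisate and cold response genes 3 were called higher and none lower (median 0.26), the dehydrin RAB18 (17.1 CPM in Stress and 3.71 CPM in DMSO), the lipid droplet peroxygenase RD20 (4.63 CPM in Stress and 1.77 CPM in DMSO) and GOLS2, a galactinol synthase (1.81 CPM in Stress and 0.642 CPM in DMSO). COR47, another dehydrin, had 264 CPM in Stress and 395 CPM in DMSO. The 16 genes of peroxisomal β-oxidation and PEX11 peroxisome division held none past the 2-fold ratio (median 0.09), and KAT2, the main thiolase, had 397 CPM in Stress and 372 CPM in DMSO.

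**Figure D4:**
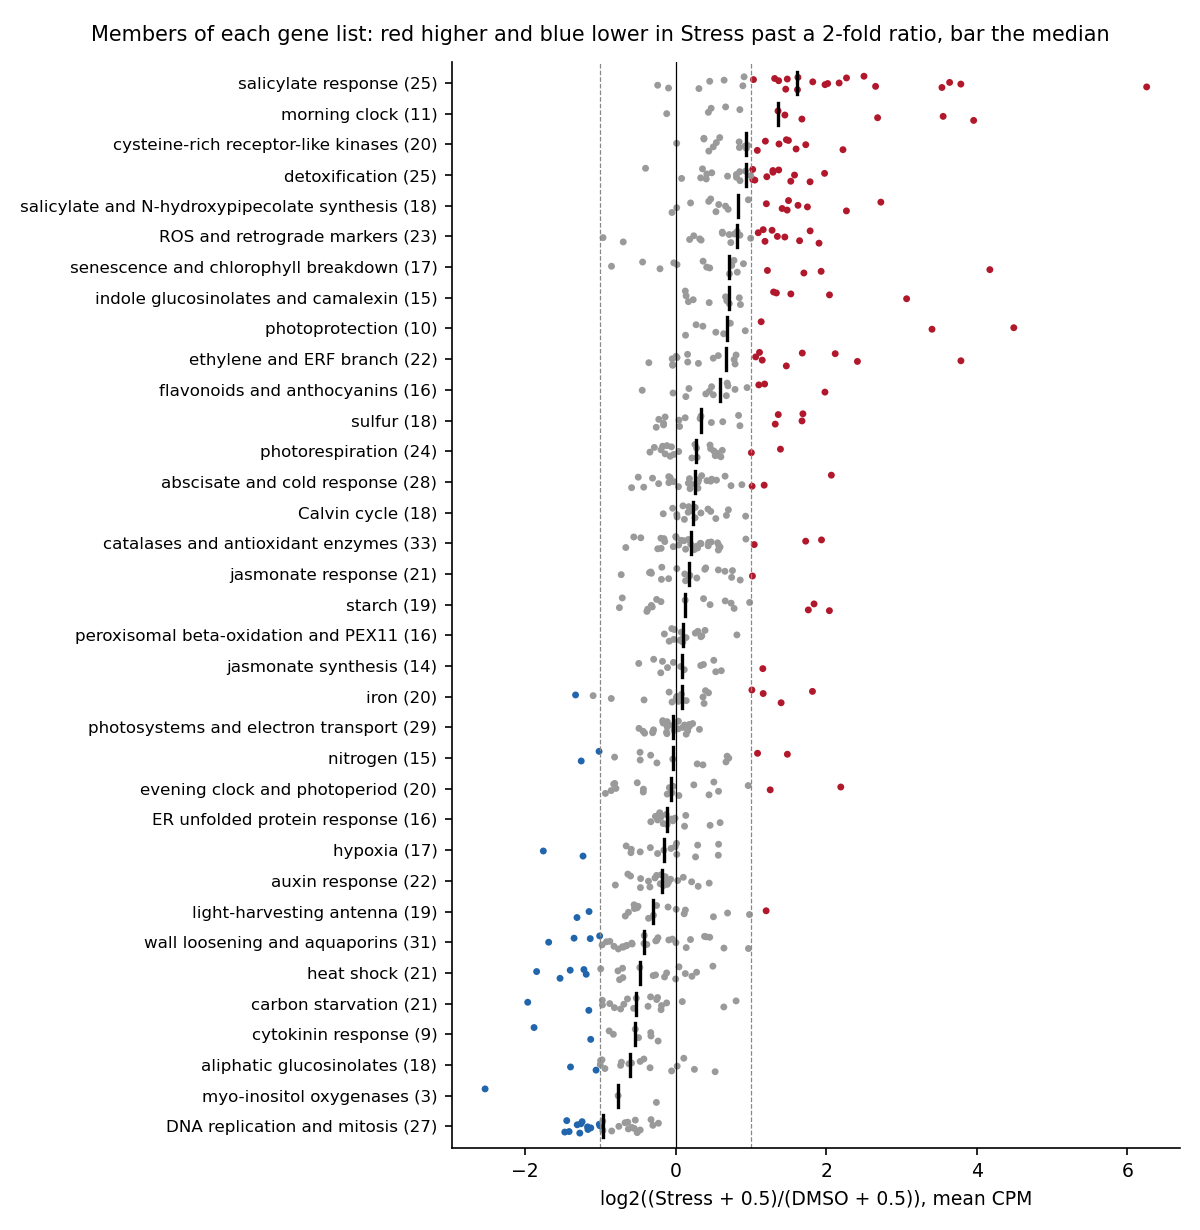
Log2 ratio of Stress to DMSO (x axis) of every measured member of 35 gene lists (y axis, number of members in brackets), ordered by the list median (black bar), with called members in red (higher) or blue (lower). The medians run from -0.96 (DNA replication and mitosis) to 1.62 (salicylate response), against -0.06 over the 18679 genes with at least 1 CPM.

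Pakerine-treated plants offered a repeat of the same stress in other libraries, though with the compound present in both groups. There, Stress + Pakerine against Pakerine gave 805 genes higher (4.21% of 19112) and 189 lower (0.989%). Of the 731 genes called higher in mock-treated plants, 565 (77.3%) were called higher in the repeat and none lower, and these were 70.2% of the 805. Of the 305 genes called lower, 82 (26.9%) were called lower in the repeat, which were 43.4% of the 189, and 291 had a negative log2 ratio. The median log2 ratio of the 731 genes was 1.41 in mock-treated and 1.44 in pakerine-treated plants, and that of the 305 genes -1.18 and -0.80. The 15 genes with the highest ratios were all called higher in the repeat, with PR1 at 20.7 CPM in Stress + Pakerine and 0.240 CPM in Pakerine and LHY at 84.4 CPM in Stress + Pakerine and 1.04 CPM in Pakerine. Of the 15 with the lowest ratios 11 were called lower in the repeat, and HRA1, DI21, LTP2 and CDC20.1 were not, with log2 ratios of -0.85, -0.54, -0.98 and -0.95.

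Several lists differed in their medians or counts between the 2 sets of plants, differences that were not tested. No DNA replication or mitosis gene passed the 2-fold ratio in the repeat, where the list median was -0.43, and KNOLLE had 15.1 CPM in Stress + Pakerine and 26.3 CPM in Pakerine. The heat shock list had a median of 0.47 in the repeat and -0.47 in mock-treated plants. HSP17.4 was the only gene of the table called in opposite directions, with 18.1 CPM in Stress + Pakerine and 6.45 CPM in Pakerine in pakerine-treated plants beside 5.90 CPM in Stress and 14.1 CPM in DMSO. Carbon starvation genes were lower more often in the repeat, with 9 of 21 called lower and a median of -0.94, and MCCA had a log2 ratio of -1.87 there. Neither GLDP1 (log2 ratio 0.89) nor GLDP2 (0.71) passed the 2-fold ratio in the repeat. TAT3, the jasmonate-responsive aminotransferase, had 5.83 CPM in Stress + Pakerine and 0.124 CPM in Pakerine, and the jasmonate response list held 9 higher genes there. In the antenna, 4 genes were called higher in the repeat, and LHCB1.1, named after its value was seen, had a log2 ratio of 2.34 there and 0.50 in mock-treated plants, with 10.4% of its 75-base stretches in another gene.

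**Figure D5:**
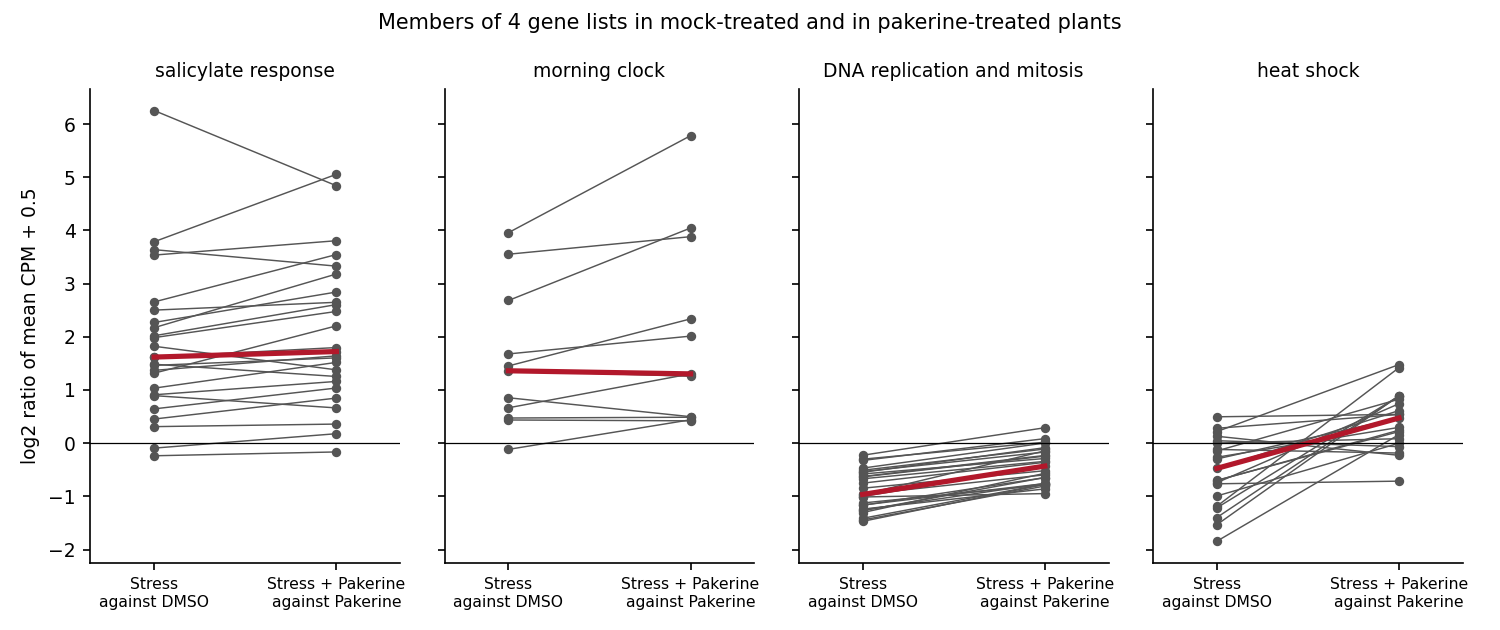
Log2 ratio (y axis) of each member of 4 lists in mock-treated plants (Stress against DMSO, left of each panel) and in pakerine-treated plants (Stress + Pakerine against Pakerine, right), with the list median as a red line. The medians of the salicylate response (1.62 and 1.72) and of the morning clock (1.36 and 1.303) nearly repeat, that of DNA replication and mitosis moves to -0.43, and that of heat shock crosses 0.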

How the data were processed

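RNA of leaf material was sequenced as single-end reads of 75 bases. Per the submitters' processing notes and the study's methods, reads were trimmed with Trim Galore 0.3.3, aligned to TAIR10 with TopHat2 2.1.0 and counted per gene with featureCounts (Subread 1.4.6), and the authors fitted edgeR. The deposited table holds the authors' mean CPM of each group, with 3 libraries behind each mean. Its other columns hold the fold changes, p-values, false discovery rates and calls of the authors' own comparisons, and none of these was used. The 4 mean columns were taken as deposited, and genes were called at a 2-fold ratio after adding 0.5 CPM, with at least 1 CPM in the higher group. Adding 0.5 CPM understates the ratio of low genes. Mean CPM is not divided by gene length, so that levels of different genes were not compared. Reads per library were recovered from the steps between values below 0.12 CPM, and all of these values were whole multiples within 2e-08 CPM. Intervals are exact binomial ones at 95%. The genes named are the 15 with the highest and the 15 with the lowest ratios among called genes with at least 10 CPM, and in each list up to 5 called members with the largest ratios, up to 3 called against the majority and the 2 with the most CPM. The lists and the comparison were chosen with earlier results of these data known. Of 736 listed loci, 707 had a value, and 29 were not analysed here. Promoters and shared 75-base stretches came from RefSeq TAIR10.1, to which 21731 of the 21882 genes were matched by locus. The calls were also run on simulated counts with known changes in well-counted genes. These counts held counting error only, so the run cannot show how the calls fare with variation between libraries. Python 3.11.15, numpy 2.4.6, pandas 2.3.3, scipy 1.17.1 and matplotlib 3.10.9 were used. The study's methods describe the 3 samples of each treatment as biological replicates. Nothing in the labels says whether the 3 libraries of a group came from separate cultures.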

Additional observations from a re-analysis of the deposited data

How the results depend on the processing

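The calls depend most on the fold asked for. At a 4-fold ratio 116 genes were higher and 5 lower in Stress, and at a 1.5-fold ratio 1734 and 1387. Adding 0.1 or 1 CPM in place of 0.5, no filter or at least 5 CPM, centring on the median log2 ratio (-0.041), scaling by a trimmed mean (-0.065) and leaving out organelle genes gave 557 to 837 higher and 222 to 427 lower genes, beside 731 and 305. Pakerine-treated plants gave 805 higher and 189 lower genes. Another pseudocount cannot change the sign of a log2 ratio, and shifts of -0.041 and -0.065 are too small to turn a called gene. Of 190 named genes, called or not, 68 moved by more than 0.5 times the width of their counting interval with centring. With the trimmed mean 87 did. HSP17.4 changed sign in the pakerine-treated plants. With at least 5 CPM in the higher group, 9 of 70 list counts differed by more than 1.5-fold, among them the salicylate response with 11 higher genes, the cysteine-rich kinases with 2 and the heat shock list with 2 lower. Over all settings of fold, pseudocount, filter and scaling, the majority direction of called members turned in 1 of 35 lists. The depth behind the calls matters most for the 487 genes within 0.1 of the 2-fold line on the log2 scale. Single libraries could not be left out, because the table holds group means only. No paired analysis was possible because the columns carry no replicate numbers.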

Other observations

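Organelle transcripts are left out of the lists above. None of the 87 plastid-encoded genes and none of the 38 mitochondrial genes was called higher or lower. Those under 1 CPM in both groups, which are among the 87 and the 38, could not be called. Among plastid genes with at least 1 CPM, log2 ratios ran between -0.79 for ATCG00170 (RPOC2, a subunit of the plastid RNA polymerase, 2.3035 CPM in Stress and 4.35 CPM in DMSO) and 0.56 for ATCG00500 (ACCD, a subunit of the plastid acetyl-CoA carboxylase, 1.56 CPM in Stress and 0.899 CPM in DMSO). Plastid genes took 0.0517% of CPM in Stress and 0.0505% in DMSO, and mitochondrial genes 0.0227% in Stress and 0.0268% in DMSO.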
